A study of Mus musculus with 6 samples.

Results

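A set of 9 genes of vitamin A metabolism and of the response to retinoic acid was followed in mouse liver: Cyp26a1, Cyp26b1, Rbp4, Lrat, Dhrs3, Rdh11, Rdh16, Rara and Rarb. Their probes were the non-control probes of the array whose RefSeq accession belongs to one of these genes, and all 9 genes were found, on 14 probes, among 22911 genes with a symbol. The samples were livers of 6 male mice, 12 weeks old when put on the diets. Control mice (n = 3) were fed 100% regular granulated chow, and soy-fed mice (n = 3) were fed chow with 25% soy bean, for 28 days. Each liver was taken from the right lobe and measured on 1 single-colour Agilent array. No genotype or treatment other than the diet separated the groups, and the strain is not given in the sources used here.

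Values below are log2 signals after background correction and quantile normalization, given for replicates 1, 2 and 3 of each group in that order. A change is the soy mean minus the control mean on the log2 scale, with its standard error (SE) from limma, and its p was adjusted across the 56605 probes by the Benjamini-Hochberg method. To be called, a probe needed an adjusted p under 0.05 and a soy-to-control ratio either above 1.5 or under 0.66, and a gene needed 1 such probe or more. A gene with several probes is represented by the brightest, and levels of different probes are not compared. The precision of each value is limited by the number of arrays, 3 per group. Fewer spots stood well above background on the soy arrays (31308, 31988 and 32498) than on those of the controls (37010, 36366 and 38163). Slide 1 carried control 1, control 2 and soy 1, slide 2 carried soy 2 alone, and slide 3 carried the third array of each group. A fit with the slide as a block therefore takes no diet difference from soy 2, and it has less power to call a gene.

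The liver takes up vitamin A, stores it as retinyl esters in stellate cells and releases it as retinol bound to a plasma carrier. Retinol is oxidized to retinal and then to retinoic acid, which is cleared by cytochromes of the CYP26 family. Retinoic acid binds nuclear receptors (RAR, paired with RXR) that sit on repeated half-sites in DNA, and genes such as Cyp26a1, Rarb and Dhrs3 are known to be induced by it.

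The promoters of Cyp26a1 and Rarb are shown because both genes serve as readouts of retinoic acid and both carry the paired half-sites the receptors are known to bind. RefSeq windows (GRCm38.p6) from 250 bases before to 50 bases after a gene's start were searched on both strands for any pair of the half-sites AGGTCA or AGTTCA or GGGTCA or GGTTCA in the same direction. With 5 bases between the half-sites, 32 of 32851 windows (0.0974%) held a match, and among the 9 genes, all of which had a window, these were the windows of Cyp26a1 and Rarb. With 2 bases between them the share was 0.268% of windows and with 1 base 0.222%, and no window of the 9 genes was among them. The windows are printed in the direction of the gene, with the matched pair in capitals, at chr19:37697558-37697857 on the plus strand for Cyp26a1 and at chr14:16575427-16575726 on the minus strand for Rarb.
Cyp26a1: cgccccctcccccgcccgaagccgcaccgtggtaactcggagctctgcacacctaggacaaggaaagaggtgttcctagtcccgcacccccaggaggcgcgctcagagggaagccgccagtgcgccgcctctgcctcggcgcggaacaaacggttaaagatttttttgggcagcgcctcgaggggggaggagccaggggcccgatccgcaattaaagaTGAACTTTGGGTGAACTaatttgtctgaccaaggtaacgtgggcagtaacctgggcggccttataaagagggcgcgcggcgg
Rarb: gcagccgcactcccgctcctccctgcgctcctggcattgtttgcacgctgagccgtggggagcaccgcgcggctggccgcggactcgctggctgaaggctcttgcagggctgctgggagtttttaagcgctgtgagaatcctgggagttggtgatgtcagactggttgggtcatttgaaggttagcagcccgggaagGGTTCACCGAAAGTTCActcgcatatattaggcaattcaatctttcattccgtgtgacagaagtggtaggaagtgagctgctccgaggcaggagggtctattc
The Rarb match lay on the strand of the gene, from base -53 to base -37 counted from the start, and that of Cyp26a1 on the opposite strand, from -32 to -16. A match is a description of letters, and binding was not measured here.

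None of the 9 genes was called (0 of 9), where 0.532% of all genes were called on at least 1 probe (122 of 22911). On the brightest probe, 4 of the 9 were higher in soy-fed livers and 5 lower, and the median change was -0.03, against -0.01 over all genes. A shift of each array to its 75th percentile, in place of quantile normalization, moved the median of all genes to 0.11 and made 5 of the 9 higher. With the slide as a block 6 of the 9 were higher and 3 lower, with a median of 0.20, and none was called. At an unadjusted p under 0.05 the fit gave 1 of the 9 genes, Rdh11, where 14.2% of all genes reached that level. Rdh11 was also the only one whose groups did not overlap, where 20.5% of all genes had no overlap. In exact permutation tests of a single gene, 3 livers against 3 cannot give a p under 0.10, so the fit across all probes was used.

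**Figure D1:**
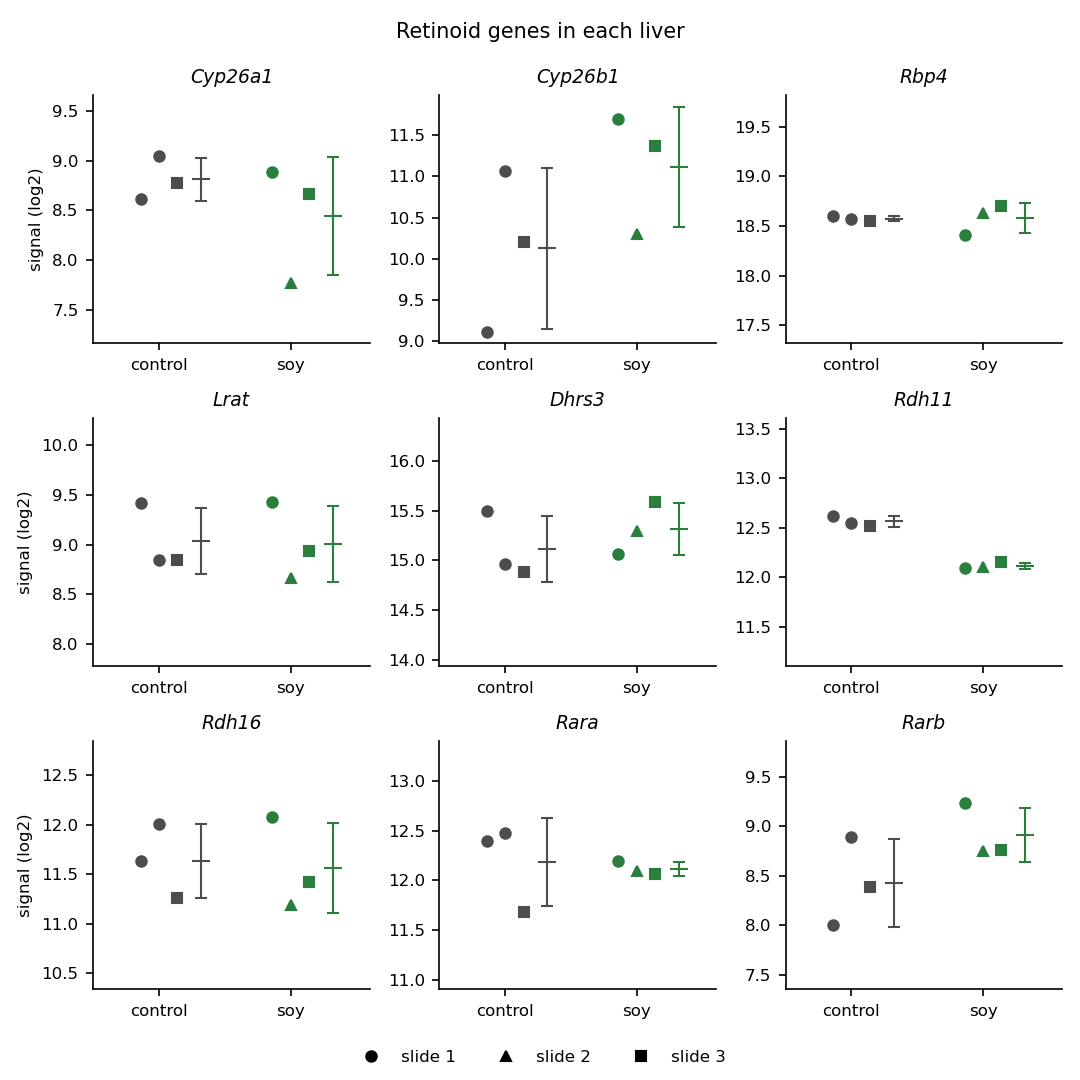
Each panel plots 1 of the 9 genes by its brightest probe: the log2 signal of each liver (points, shaped by slide) and the mean ± SD of each group (bars) for control and soy-fed mice (n = 3 each). The groups are apart only for Rdh11, at 12.52 to 12.62 in control and 12.09 to 12.15 in soy-fed livers; every panel spans at least 2.5 log2 units.

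Of the transport and storage genes, neither was called. Rbp4 (NM_011255) encodes the plasma carrier of retinol, which hepatocytes secrete. It read 18.60, 18.57 and 18.55 in the control livers and 18.41, 18.63 and 18.70 in the soy-fed livers. The soy values lie on both sides of the control values, and the change was 0.00 (SE 0.11, adjusted p = 0.997), with a 95% interval from -0.25 to 0.26. Lrat (NM_023624) encodes the enzyme that esterifies retinol for storage. Its signals were 9.42, 8.85 and 8.84 in control and 9.42, 8.66 and 8.93 in soy-fed livers, with control 1 and soy 1 above the rest. The change was -0.03 (SE 0.23, adjusted p = 0.976; 95% interval -0.56 to 0.51).

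The 3 genes that interconvert retinol and retinal differed in how close their replicates were. Rdh11 (NM_021557) encodes a microsomal retinal reductase. Its brightest probe read 12.62, 12.55 and 12.52 in control livers and 12.09, 12.11 and 12.15 in soy-fed livers. All 3 soy values lie below all 3 control values, as did those of 10.8% of all genes. The change was -0.45 (SE 0.09), a fold of 0.734 with a 95% interval from 0.634 to 0.850, and it did not pass after adjustment (unadjusted p = 0.00137, adjusted p = 0.111 in limma). Within slide 1 the difference was -0.50 and within slide 3 it was -0.36. The dimmer probe of Rdh11 read 9.06, 8.84 and 8.95 in control and 8.44, 9.13 and 8.42 in soy-fed livers, so that soy 2 was above every control (change -0.29, SE 0.20, adjusted p = 0.635).

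Dhrs3 (NM_011303) encodes a retinal reductase that limits retinoic acid formation. The signals of its brightest probe were 15.50, 14.96 and 14.88 in control and 15.07, 15.30 and 15.59 in soy-fed livers. Control 1 is among the highest and the groups overlap (change 0.21, SE 0.20, adjusted p = 0.742), and with 1 array left out the change lay between 0.072 (without soy 3) and 0.40 (without control 1). Within slide 1 the difference was -0.16 and within slide 3 it was 0.71. The other probe changed by 0.19 (SE 0.11, adjusted p = 0.581), also with overlap. Rdh16 (NM_009040) encodes a retinol dehydrogenase of the endoplasmic reticulum. It was measured at 11.64, 12.01 and 11.26 in control and 12.07, 11.19 and 11.42 in soy-fed livers, which covers the same range in both groups (change -0.07, SE 0.26, adjusted p = 0.943).

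The retinoic acid hydroxylases had wide replicate spreads. Cyp26a1 (NM_007811), the main retinoic acid hydroxylase of liver, gave 8.62, 9.05 and 8.78 in control and 8.89, 7.77 and 8.67 in soy-fed livers. Soy 2 stands below the other 5 livers, which overlap. The change of -0.37 (SE 0.28, adjusted p = 0.664) became -0.04 when soy 2 was left out (adjusted p = 0.954), and -0.015 with the slide as a block. Both fits set soy 2 aside, so they are not separate checks. Within slide 1 the difference was 0.06. Cyp26b1 (NM_175475), the second hydroxylase of this family, ranged more widely. Its signals were 9.11, 11.06 and 10.21 in control livers and 11.69, 10.30 and 11.36 in soy-fed livers. Control 2 was higher than soy 2, and the change of 0.99 (SE 0.52, adjusted p = 0.524) had a 95% interval from -0.21 to 2.20. Without control 1, the lowest liver, the change was 0.49, and within slide 1 the difference was 1.61.

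The retinoic acid receptors were not called on any of their 5 probes. Rara (NM_001177302) read 12.39, 12.48 and 11.68 in control and 12.19, 12.10 and 12.06 in soy-fed livers, so the soy values fall within the range of the controls. The change was -0.07 (SE 0.21, adjusted p = 0.928) on this probe and 0.15 (SE 0.18, adjusted p = 0.791) on the dimmer one. Rarb has 3 probes, 1 for each of 3 RefSeq transcripts. The brightest (NM_011243) gave 8.01, 8.89 and 8.39 in control and 9.23, 8.75 and 8.76 in soy-fed livers, with control 2 above 2 of the soy livers (change 0.48, SE 0.24, adjusted p = 0.493; 95% interval -0.07 to 1.03). With 1 array left out the change lay between 0.27 (without control 1) and 0.72 (without control 2). The second (NM_001289760) changed by 0.11 (SE 0.17, adjusted p = 0.846). The third (NM_001289761) was well above background on 1 control array and on no soy array, so that no fold is given.

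**Figure D2:**
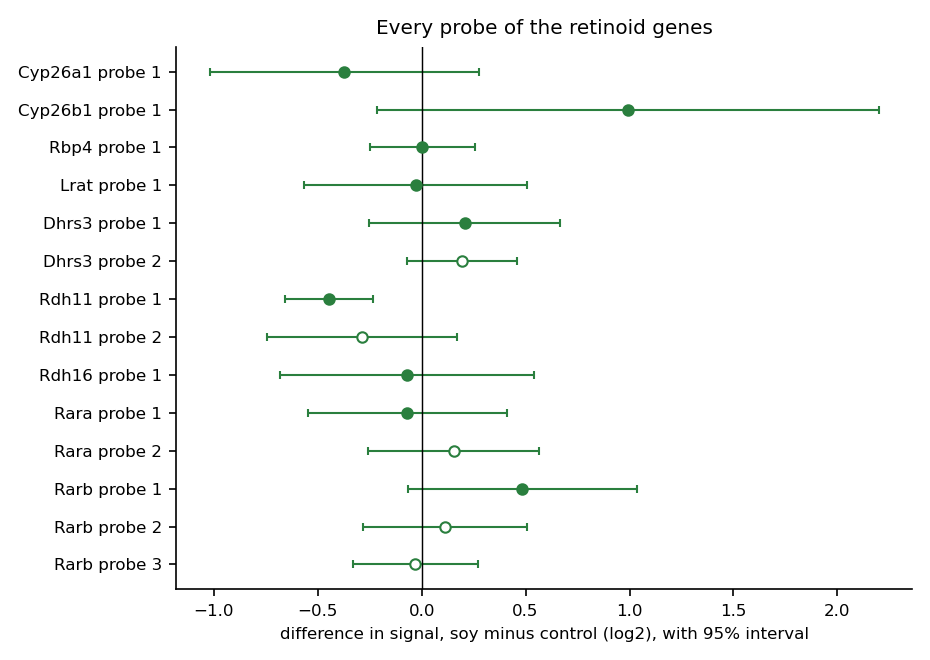
The log2 change, soy minus control, of each of the 14 probes of the 9 genes (points, filled for the brightest probe of a gene) with its 95% interval from limma (bars). The interval leaves out 0 only for the brightest Rdh11 probe (-0.66 to -0.23), whose adjusted p was 0.111.

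The spread between livers of 1 group set how small a change could be seen. Among 13513 genes well above background on all 6 arrays, the median within-group SD was 0.158 (log2). Rdh11 had an SD of 0.0441, at percentile 1.32, and Rbp4 one of 0.110, at percentile 23.7. The other 7 genes lay above percentile 85, with Cyp26a1 at 95.4 (SD 0.446) and Cyp26b1 at 99.4 (SD 0.862). These ranks are descriptions and carry no test.

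The signals of the 9 genes were compared in pairs, a comparison that 6 livers leave with little power: the smallest two-sided exact permutation p is 0.00278, and for 1 pair alone it would be 0.10 after adjustment over the 36 pairs. Over the 6 livers, Cyp26b1 and Rarb had a Pearson r of 0.929 (exact permutation p = 0.0139) and a Spearman rho of 0.943 (exact permutation p = 0.0167). This was the highest r of 36 gene pairs, and with Benjamini-Hochberg adjustment over them the permutation p values were 0.50 and 0.60. Without the 2 livers farthest from the median of Cyp26b1, r was 0.657. Of deviations from the group means, r was 0.892. The slides hold 1 to 3 livers, too few for a value within each. Of 13497 genes compared, those with signals most like Cyp26a1 over the 6 arrays included Gfpt1 (r = 0.991), Vbp1 (0.981), Gc (0.976) and Tbccd1 (0.975). Gfpt1 encodes the first enzyme of the hexosamine pathway and Gc the vitamin D-binding protein of plasma. These 4 had their lowest signal in soy 2, like Cyp26a1, which follows from picking them by likeness to it. Soy 2 was alone on slide 2, and whether the likeness holds without it was not tested. None of the 4 was called (adjusted p from 0.562 to 0.778).

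The rest of the pathway was read from 7 lists by role, which hold 84 genes, the 9 among them, of which 82 were on the array. Of these 82, 4 were called, 3 higher and 1 lower in soy-fed livers, where 0.34% of all genes were called higher and 0.192% lower. Their median change was 0.01. Without overlap between the groups, 15 were higher and 16 lower, where 9.68% of all genes were higher and 10.8% lower without overlap. At an unadjusted p under 0.05 there were 31, where 14.2% of all genes reached that level. The lists were chosen with earlier results known, and they hold Ces1d, Aox1, Rxrg and Cebpe, which the paper had reported as changed. The pathway genes were also more often detected: 6 of the 82 were not well above background on any array, against 5870 of all 22911 genes. The shares of all genes are therefore not a like comparison, and an excess of changed genes in the pathway was not tested. The sentences on single genes below name those called and, in each list, the 3 largest changes without overlap.

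**Figure D3:**
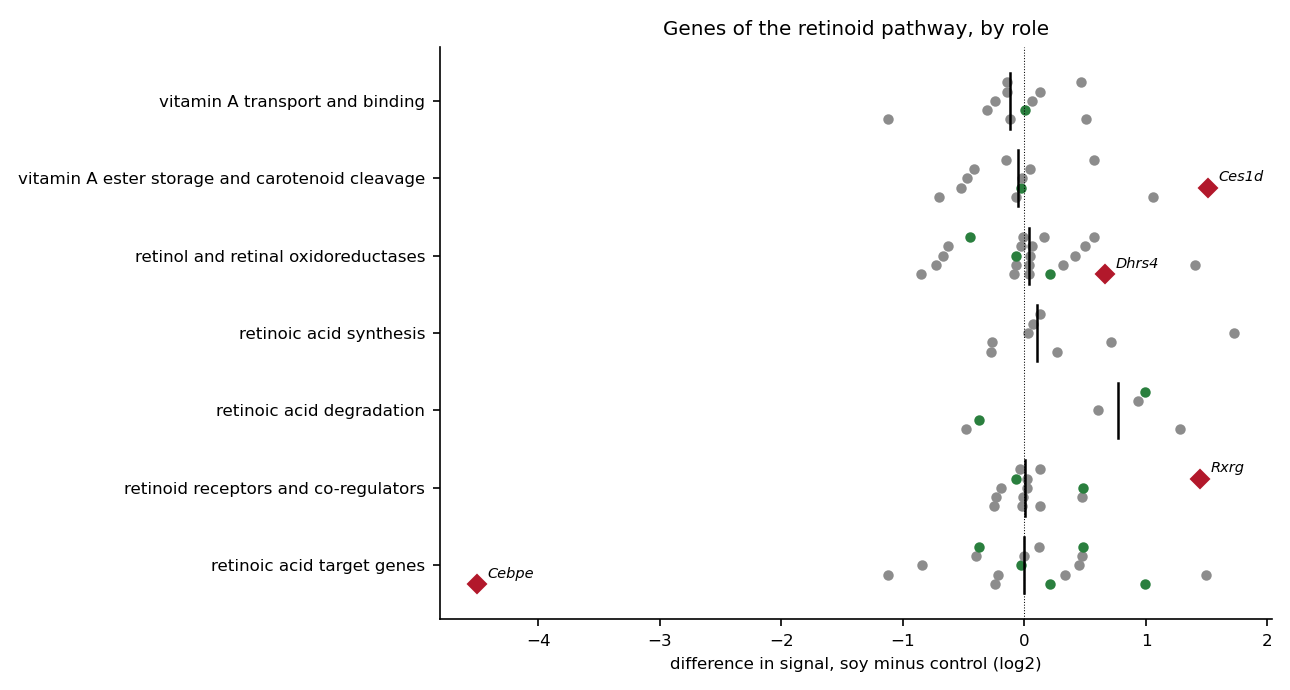
Each point is a gene of a pathway list, placed by the log2 change, soy minus control, of its brightest probe, with the 9 genes in green, called genes as red diamonds with their names, and the list median as a vertical bar. Called genes are Ces1d (1.51), Dhrs4 (0.66) and Rxrg (1.44) to the right and Cebpe to the left, whose soy arrays were not well above background; a gene in several lists is drawn in each.

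Among 11 measured genes of vitamin A transport and binding, 0 were called, 5 were higher and 6 lower, and 3 were not well above background on any array. The median change was -0.12, and 0.05 with the 75th-percentile shift. Ttr, the partner of Rbp4 in plasma, changed by 0.06 (adjusted p = 0.886; 0.0089 to 0.16 with 1 array left out) on its brightest probe and by -0.39 (SE 0.13, adjusted p = 0.287), without overlap, on the other, so its probes disagree in sign. Stra6l, a receptor for the carrier in liver, changed by -0.31 (adjusted p = 0.571; -0.47 to -0.15 with 1 array left out).

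Of 12 genes of vitamin A ester storage and carotenoid cleavage, 1 was called higher and 0 lower. By sign alone 4 were higher and 8 lower, and the median change was -0.05. Ces1d (NM_053200), a carboxylesterase that can hydrolyse retinyl esters and triglycerides, rose in soy-fed livers. It read 14.18, 14.33 and 14.44 in control and 16.03, 15.69 and 15.75 in soy-fed livers, more than a log2 unit apart, a fold of 2.85 (SE of the log2 change 0.13, adjusted p = 0.0101). With the slide as a block its adjusted p was 0.0800. Lpl, which releases fatty acids from plasma lipoproteins, changed by -0.71 (SE 0.22, adjusted p = 0.287; -0.46 within slide 1), with overlap on its dimmer probes. Pnpla2, a lipase of lipid droplets, changed by -0.47 (SE 0.12, adjusted p = 0.176).

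Among 22 measured oxidoreductases of retinol and retinal, 1 rose and 0 fell, and 12 were higher and 10 lower (median 0.04, and -0.02 with the processed signal). With the slide as a block 15 were higher and 7 lower (median 0.12). Dhrs4, a retinal reductase of peroxisomes, was measured by 2 probes. The brighter (NM_001037938) read 14.97, 14.85 and 14.94 in control and 15.60, 15.63 and 15.52 in soy-fed livers. These narrow groups were apart by 0.66 (SE 0.09), a fold of 1.59, at an adjusted p of 0.0432. The other probe (NM_030686) changed by 0.79 (SE 0.12, adjusted p = 0.0531), also without overlap. The call was lost whenever 1 array was left out (adjusted p from 0.0894 to 0.164) and with the slide as a block (0.198). Retsat (NM_026159), which saturates retinol, read 14.46, 13.56 and 14.49 in control and 15.50, 15.64 and 15.57 in soy-fed livers. The soy values are close together and all above the controls, of which control 2 is lowest, and the change of 1.40 (SE 0.24) had an adjusted p of 0.0729. With 1 array left out the change lay between 1.09 and 1.56 (adjusted p from 0.0435 to 0.222), and Retsat was called only without control 2, where the change was lowest. Rdh1, a retinol dehydrogenase, changed by -0.85 (SE 0.19, adjusted p = 0.136; -0.50 within slide 3), and Rdh13, a mitochondrial enzyme of this family, by -0.73 (SE 0.20, adjusted p = 0.206; -0.38 within slide 3), without overlap on either of its probes.

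No gene of retinoic acid synthesis was called, with 6 of 8 higher in soy-fed livers and a median change of 0.10. The median was 0.25 with the 75th-percentile shift and 0.23 with the processed signal. Aldh1a1 (NM_013467), the retinal dehydrogenase that makes retinoic acid, gave 17.05, 17.20 and 17.46 in control and 17.88, 17.85 and 18.11 in soy-fed livers. The groups are apart, with a change of 0.71 (SE 0.14) and an adjusted p of 0.0961. Aox1 (NM_009676), an aldehyde oxidase that accepts retinal, read 13.89, 12.59 and 13.24 in control and 15.16, 14.80 and 14.94 in soy-fed livers. Its control livers are spread over more than a log2 unit and all lie below the soy-fed livers, with a change of 1.72 (SE 0.30, adjusted p = 0.0732). With 1 array left out the change lay between 1.40 and 2.05 (adjusted p from 0.0405 to 0.206), and Aox1 was called only without control 1. Aldh1a2 was well above background on all 3 control arrays and on none of the soy arrays, with a change of -0.26 (adjusted p = 0.363) that was -0.054 with the 75th-percentile shift and -0.67 with the processed signal, where it was called (adjusted p = 0.0417), so no fold is given.

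Of 6 genes of retinoic acid degradation, Cyp26a1 and Cyp26b1 included, 0 were called, 4 were higher and 2 lower, and the median change was 0.77. It was 0.88 with the 75th-percentile shift and 1.13 with the processed signal. This median rests in part on Cyp26c1 (0.61, adjusted p = 0.563 in limma). Cyp26c1 was well above background on 0 control arrays and 1 soy array, and its groups overlap. Cyp3a11 (NM_007818), a cytochrome of drug metabolism that can also hydroxylate retinoic acid, read 15.19, 15.84 and 16.42 in control and 17.20, 17.07 and 17.02 in soy-fed livers. All soy values exceed the controls, which differ among themselves by more than a log2 unit (change 1.28, SE 0.28, adjusted p = 0.127). With 1 array left out the change lay between 0.97 and 1.58 (adjusted p from 0.0470 to 0.294), and Cyp3a11 was called only without control 3. Within slide 3 the difference was 0.59 and within slide 1 it was 1.69. Cyp2c39, a retinoic acid hydroxylase of liver, changed by 0.94 (SE 0.27, adjusted p = 0.232; 0.62 within slide 1 and 1.69 within slide 3), and Cyp2s1, whose product can metabolize retinoic acid, by -0.48 (SE 0.17, adjusted p = 0.335).

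Among 14 nuclear receptors and co-regulators, 1 rose and 0 fell, and 7 were higher and 7 lower (median 0.00). With the slide as a block 10 were higher and 4 lower (median 0.12). Rxrg (NM_009107), the gamma form of the RXR partner, rose. It was measured at 7.85, 8.18 and 8.34 in control and 9.34, 9.87 and 9.50 in soy-fed livers. The change of 1.44 (SE 0.18) is a fold of 2.72, with an adjusted p of 0.0294. The call was kept without control 3 (0.0428) and lost without each of the other 5 arrays (adjusted p from 0.0656 to 0.105), and with the slide as a block (0.111). Nrip1, a co-repressor that retinoic acid induces, changed by 0.47 (SE 0.11, adjusted p = 0.152) and Rxrb by -0.23 (SE 0.11, adjusted p = 0.477), with overlap on its dimmest probe. Rxra, the form most used in hepatocytes, changed by -0.04 (adjusted p = 0.920; -0.098 to 0.021 with 1 array left out).

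Of 17 measured genes known as retinoic acid targets, 5 of the 9 genes among them, 0 rose and 1 fell, 8 were higher and 9 lower, and the median change was 0.00, and 0.20 with the 75th-percentile shift. Cebpe (NM_207131), a transcription factor of myeloid cells, fell. It read 10.48, 10.46 and 11.81 in control livers and 6.38, 6.50 and 6.36 in soy-fed livers, where no array was well above background. It was at least 19.9-fold lower in soy-fed livers (adjusted p = 0.00775). This bound is the control mean against the higher, on each soy array, of its own signal and the lowest signal well above background there. Cebpe was called in every fit that left out 1 array. Fgf21 (NM_020013), a hepatic hormone, was well above background on 1 control and 3 soy arrays, with signals of 6.61, 6.39 and 7.61 against 7.65, 8.24 and 9.19. The groups do not overlap, and the change of 1.49 (SE 0.43, adjusted p = 0.241), taken against controls that were mostly not well above background, was 3.54 with the processed signal (adjusted p = 0.0852), so no fold is given.

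**Figure D4:**
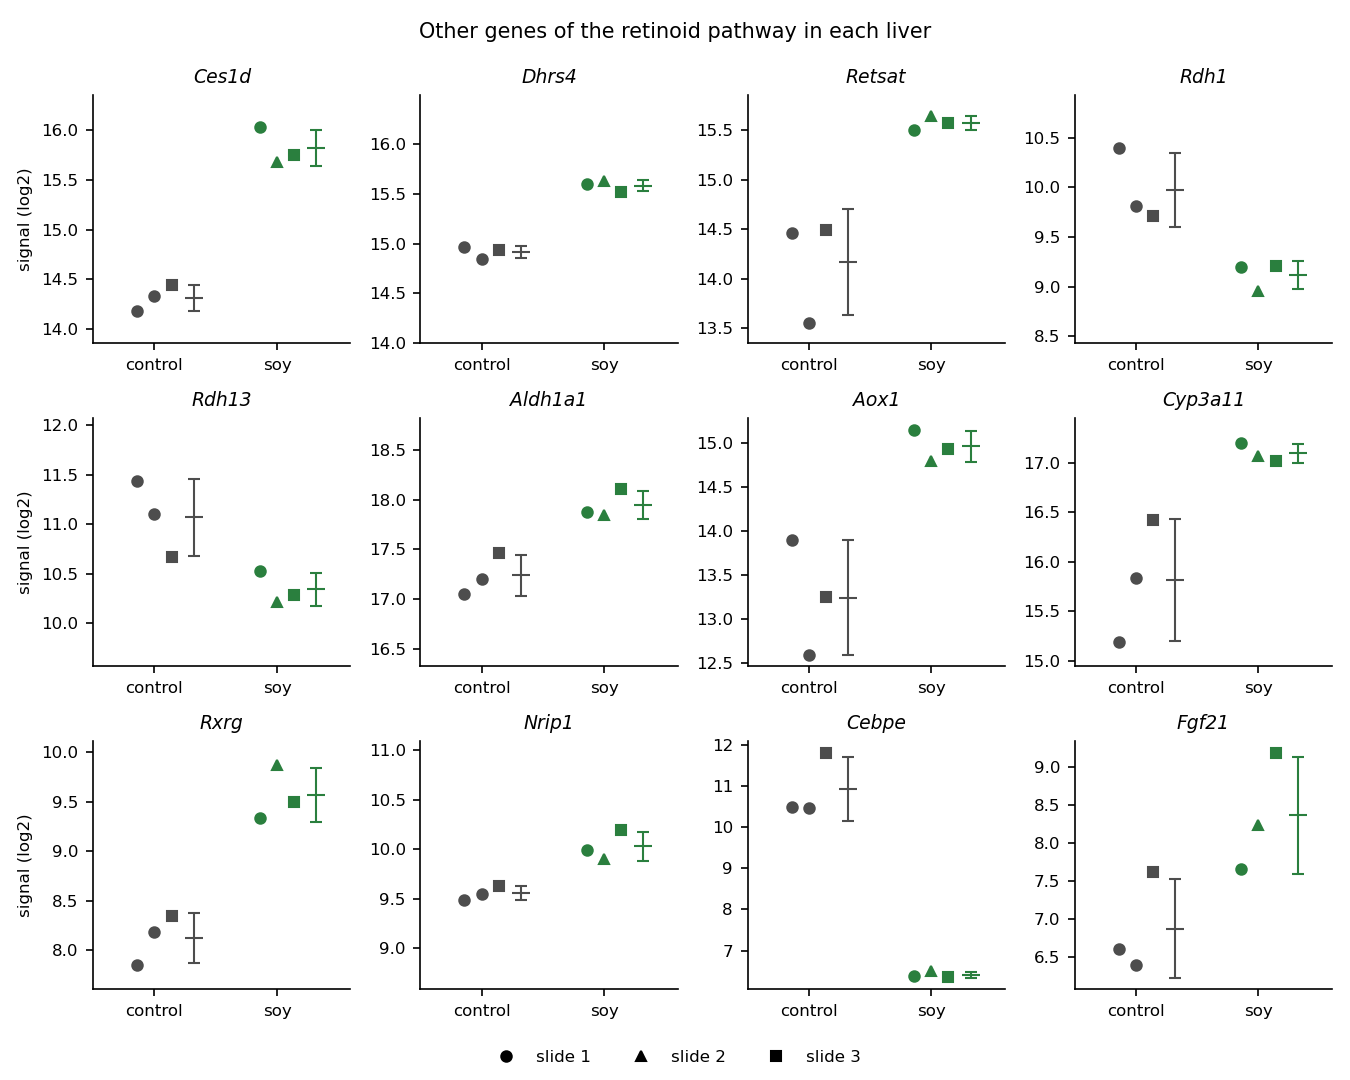
Log2 signal in each liver (points, shaped by slide) and mean ± SD of each group (bars, n = 3) for 12 pathway genes, by the brightest probe. Ces1d, Dhrs4, Rxrg and Cebpe were called; the groups are also apart in the other panels, whose adjusted p values were above 0.05.

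Ces1d, Rdh1, Rdh16, Cyp3a11 and Cyp2c39 belong to families of close copies in the mouse, and cross-hybridization of their probes was not tested.

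Because whole liver was measured, fewer cells of a type and less RNA per cell cannot be told apart. Markers of the cells that handle vitamin A, and of tissues that could be caught with the sample, were read beside the retinoid genes, and no gene of the 7 marker lists was called. Over all genes, 11723 of 22911 were lower in soy-fed livers. Without overlap, 10.8% were lower and 9.68% higher. Of 12 hepatocyte markers 10 were lower (median -0.16, 2 without overlap), and Serpina1a, whose probe is the brightest of the list (a rank of signals, not of transcript levels), changed by 0.00 (adjusted p = 0.992). The summed signal of these markers was 21.63, 21.64 and 21.59 in control and 21.53, 21.48 and 21.40 in soy-fed livers (log2). All 12 stood well above background on each of the 6 arrays, so the defining markers of the labelled tissue were present. Of 18 stellate cell markers, the cells that store vitamin A, 15 were lower (median -0.16, 3 without overlap). Dcn, the brightest, changed by -0.08 (adjusted p = 0.800; -0.14 to -0.045 with 1 array left out). The summed signal of these markers was 16.45, 16.20 and 16.23 in control and 16.04, 16.03 and 16.27 in soy-fed livers, and Lrat, which the list includes, changed by -0.03. Col1a1 (-0.997, adjusted p = 0.318) and Col3a1 (-0.94, adjusted p = 0.271) were lowest. Control 1 had the highest signal of both, and without it the changes were -0.61 and -0.66. Gfap was well above background on 1 control array and on no soy array.

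All 8 pancreas markers were lower in soy-fed livers (median -0.52, 3 without overlap, where 10.8% of all genes were lower without overlap), also with the 75th-percentile shift (-0.32), cyclic loess (-0.49) and the processed signal (-0.87). Of these, 4 stood well above background on each of the 6 arrays, and Cpb1, Prss2, Pnlip and Cpa1 were so on 2 control arrays and on none of the soy arrays. Cela1, the brightest, changed by -0.73 (SE 0.19, adjusted p = 0.191), and Cela2a by -1.21 (adjusted p = 0.0724). Their summed signal was 15.16, 15.69 and 15.42 in control and 14.73, 14.98 and 14.57 in soy-fed livers. Their part in the results for the retinoid genes was not tested. Of 8 Kupffer cell markers 7 were higher (median 0.19, 0 without overlap), and Cd5l, the brightest, changed by 0.45 (adjusted p = 0.538). Without control 1 the change of Cd5l was 0.20 and without soy 3 it was 0.29. Their summed signal was 15.24, 15.71 and 15.92 in control and 15.57, 15.83 and 16.12 in soy-fed livers. For 8 sinusoidal endothelial markers the median was -0.06, and Clec4g, the brightest, changed by 0.20 (adjusted p = 0.546; 0.11 without soy 2), with summed signals of 15.67, 15.66 and 15.62 against 15.64, 15.84 and 15.74. For 7 bile duct markers the median was 0.12, and Spp1 changed by 0.15 (adjusted p = 0.843; 0.020 to 0.36 with 1 array left out), with summed signals of 11.99, 11.58 and 11.62 against 11.96, 11.64 and 12.08; Epcam was not measured well above background on any of the 6 arrays. Among 6 adipocyte markers, Adipoq and Plin1 were not well above background on any array, and Lep, the brightest, changed by -0.21 (adjusted p = 0.618; -0.33 to -0.12 with 1 array left out). Their summed signals were 11.40, 11.35 and 11.64 in control and 12.08, 11.40 and 11.32 in soy-fed livers (median change -0.08, and 0.14 with the 75th-percentile shift).

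**Figure D5:**
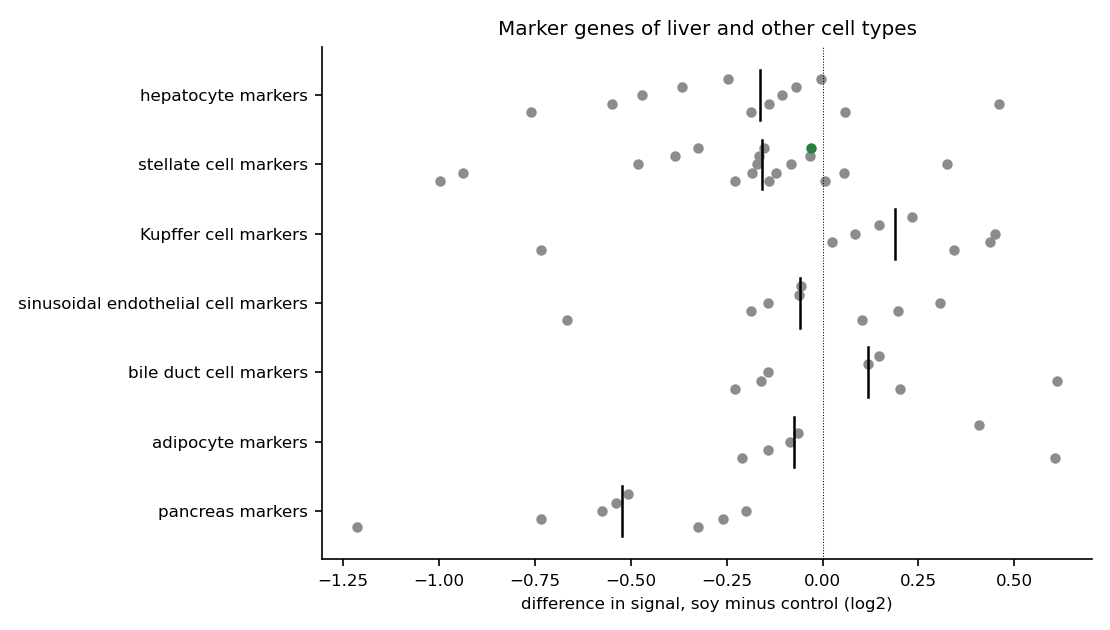
Each point is a marker gene, placed by the log2 change, soy minus control, of its brightest probe, with Lrat in green and the list median as a vertical bar. All pancreas markers and 15 of 18 stellate cell markers lie to the left of 0, and none of the markers was called.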

How the data were processed

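Liver RNA of 3 control and 3 soy-fed mice was hybridized to 1-colour Agilent arrays, 1 per mouse. The authors deposited, per the file headers, the output of Agilent Feature Extraction 11.5.1.1, with the median intensity of every spot and of its local background, neither corrected nor scaled, and a processed intensity from which the background had been subtracted. They also deposited log2 values of the same spots, which share their quantiles and differed by 0.0705 at most from those computed here.

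Median intensities were corrected by normexp (offset 50), control and outlier spots were left out, arrays were quantile normalized, and spots of a probe were averaged. A probe was well above background on an array when at least 1 of every 2 of its spots was marked so. Soy was compared with control by limma 3.58.1 in R 4.3.3. The offset compresses changes of dim probes. Symbols came from RefSeq accessions of the array through a table of GRCm38.p6 (58.3% of probes had 1), while the arrays were annotated on mm9, so promoter positions are given on GRCm38.p6 alone.

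The 9 genes and the gene lists were chosen with earlier results of these data known, and the lists were written from general knowledge. The genes named are the 9, every pathway gene called, the 3 largest changes without overlap in each pathway list among genes that every array of 1 group or both measured well above background, the gene with the brightest probe in each marker list, and the 5 genes most like Cyp26a1 (a few of these genes are not reported here); Ttr, Stra6l, Rxra, Col1a1, Col3a1, Cela2a, Cpb1, Prss2, Pnlip, Cpa1, Gfap, Epcam, Adipoq and Plin1 are given for context or as defining markers, after their values were seen. Cyp26c1 is also given for context, after its values were seen. The fit was tested on simulated data. Deviations of same-numbered livers from their group means had r of 0.103, -0.0546 and 0.102, and the main fit did not pair them. These values cannot show that the numbers carry no pairing. The livers numbered 1 shared slide 1 and those numbered 3 shared slide 3. Each array holds 1 mouse, so the spread is between animals. Python 3.11.15, pandas 2.3.3, scipy and matplotlib 3.10.9 made the tables and plots. The alternatives were other background corrections and scalings, filters on probes, other variance models, blocks for the replicate number or the slide, the authors' log2 values, adjusted p alone, the mean of a gene's probes, and each array left out in turn.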

Additional observations from a re-analysis of the deposited data

How the results depend on the processing

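None of the 9 retinoid genes was called under any alternative; the lowest adjusted p of Rdh11 was 0.0372, with the processed signal, at a fold inside the threshold. The probes called, 198, became 77 with an offset of 16, 299 with the 75th-percentile shift, 497 with only probes well above background, 13138 with the processed signal (90.8% of them higher in soy, against 59.6%), 78 with the replicate block (a paired fit on the shared numbers), 25 with the slide as a block and 25 to 203 with 1 array left out. The pathway genes called, 4, became 2 (offset 16), 20 (processed signal), 7 (75th-percentile shift, and trend and robust settings), 9 (only probes well above background), 10 (mean of a gene's probes), 1 (slide as a block) and 2 to 4 with 1 array left out; the replicate block left 3, losing Dhrs4 (adjusted p = 0.112), and changed no other call among the genes named. Of the 9 genes, 4 were higher in soy-fed livers, and 7 were within slide 3. On the brightest probe, Cebpe was called in all 18 refits, Ces1d in 17, Rxrg in 11 and Dhrs4 in 9. The causes were not tested.

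The sign turned for some genes that were not called. Within slide 1 it did for Cyp26a1 (0.057), Rbp4 (-0.18), Lrat (0.29), Dhrs3 (-0.16), Rdh16 (0.25), Gfpt1 (0.054), Gc (0.033) and Tbccd1 (0.032), and within slide 3 for Lrat (0.088), Rdh16 (0.16), Rara (0.38) and Serpina1a (0.017). With the slide as a block it did for Rbp4 (-0.041), Lrat (0.20), Rdh16 (0.21), Rara (0.023) and Tbccd1 (0.015). Serpina1a was at 0.089 with the 75th-percentile shift, 0.099 with the processed signal and 0.13 with cyclic loess, and Lrat at 0.016 and 0.031 with the former 2. The authors' log2 values gave Rbp4 -0.0067, and the mean of a gene's probes gave Rara 0.042. With 1 array left out the ranges were -0.24 to 0.16 (Lrat), -0.32 to 0.080 (Rara), -0.058 to 0.088 (Rbp4), -0.33 to 0.12 (Rdh16), -0.038 to 0.019 (Serpina1a) and -0.20 to 0.019 (Tbccd1). The other 30 of 40 genes named by rule kept their sign throughout. Slide 2 holds 1 soy array and gives no difference of its own.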

Other observations

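Other genes of these pathways, outside the rule for named genes, are given here after their values were seen, and none of them was called. Pck1, the enzyme that commits carbon to glucose synthesis and a known target of retinoic acid, changed by -0.84 on the log2 scale in soy-fed livers, with an adjusted p of 0.0576 in limma, without overlap between the groups. Rdh16f2, a relative of Rdh16, changed by -0.67 (adjusted p = 0.0593), also without overlap. Rdh5, which oxidizes 11-cis-retinol in the eye and is also present in liver, changed by -0.63 (adjusted p = 0.219). Among the alcohol dehydrogenases that can oxidize retinol, Adh1 changed by 0.50 (adjusted p = 0.150) and Adh4 by 0.41 (adjusted p = 0.357), both without overlap, while Adh5 changed by 0.04 (adjusted p = 0.930; -0.032 to 0.10 with 1 array left out). Of the carotenoid-cleaving enzymes, Bco1 changed by -0.52 (adjusted p = 0.416) and Bco2 by 1.06 (adjusted p = 0.378), with overlapping groups for both. Without control 3 the change of Bco1 was -0.29. Of the 63 pathway genes with a promoter window, Cyp26a1, Rarb and Bco1 had a pair of half-sites there, that of Bco1 with 1 base between them.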
